A study of Mus musculus with 19 samples.

Results

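The adhesion receptors of leukocytes and microglia, the beta-2 and alpha-4 integrins, were followed with the proteins that activate them in bulk RNA from wild-type mouse medial prefrontal cortex. Members were taken by gene name from the merged count table. They were the integrin chains Itgb2, Itgam, Itga4 and Itgb1 and the activators Fermt3 and Tln1, 6 of the 57010 genes in the table, and all 6 passed the expression filter that left 17757 genes. Control mice (n = 4 libraries, numbered 1, 2, 4 and 5) were given saline by gavage over 8 days and saline injections into the peritoneum over 5 days. LPS mice (n = 5) were given the same gavage and injections of bacterial lipopolysaccharide (LPS) at 1 mg/kg. Sedanolide mice (n = 5) were gavaged with sedanolide, a phthalide of celery, at 20 mg/kg and injected with saline. Co-treated mice (n = 5) received sedanolide and LPS at those doses, and in both LPS groups gavage began 3 days before the first LPS injection. Age, sex and strain are not given in the sources used here. The labels do not say whether replicates are different animals, and p-values then measure only the spread between these libraries, which may be technical.

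Integrins are heterodimers of an alpha and a beta chain that join the cell surface to ligands on other cells or in the matrix. The beta-2 chain Itgb2 (CD18) pairs with Itgal to form LFA-1, with Itgam to form Mac-1 (CD11b/CD18, also complement receptor 3) and with Itgax to form complement receptor 4. In brain, microglia are the main resident cells with Mac-1, and infiltrating neutrophils and monocytes carry it as well. The alpha-4 chain Itga4 pairs with Itgb1 to form VLA-4, which binds VCAM-1 on activated endothelium, whereas Itgb1 is shared by many alpha chains and cell types. Talin 1 (Tln1), present in most cells, and kindlin 3 (Fermt3), largely restricted to blood cells and microglia, bind the tail of the beta chain and switch integrins to high affinity.

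In the coordinates of the deposited table, whose genome build is not given, Itgb2 (ENSMUSG00000000290) lies on chromosome 10 from 77366086 to 77401542 and Itgam (ENSMUSG00000030786) on chromosome 7 from 127661812 to 127717663. Itga4 (ENSMUSG00000027009) lies on chromosome 2 from 79085770 to 79163467, and Itgb1 (ENSMUSG00000025809) on chromosome 8 from 129412135 to 129459681. Fermt3 (ENSMUSG00000024965) lies on chromosome 19 from 6976326 to 6996837 and Tln1 (ENSMUSG00000028465) on chromosome 4 from 43531519 to 43562691. Whether the counting used strand is not given, and Fermt3, Tln1 and Itga4 each overlap a gene on the opposite strand, Trpt1, Creb3 and Cerkl. None of these 3 neighbours was called in LPS against control (log2 change -0.13 for Trpt1, 0.03 for Creb3 and 0.00 for Cerkl, adjusted p = 0.618, 0.821 and 0.995 by edgeR) or in the other comparisons.

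Promoter sequences are shown for a pair of genes that rose with LPS whether or not sedanolide was given, Itgam and Fermt3, and for a pair with lower levels when sedanolide was added to LPS, Itgb1 and Tln1. The pairs are not exclusive, since Itgb1 was also called higher with LPS both with and without sedanolide. RefSeq promoters of build GRCm38.p6, 250 bases before the transcript start and 50 after it, matched 5 of the 6 members, all but Itgb2. Capitals mark GAGGAA on either strand, one of the sequences that ETS-family factors such as the myeloid regulator PU.1 can bind. Other sequences bound by ETS factors were not searched and are not marked.
Itgam, chr7:128062390-128062689, plus strand: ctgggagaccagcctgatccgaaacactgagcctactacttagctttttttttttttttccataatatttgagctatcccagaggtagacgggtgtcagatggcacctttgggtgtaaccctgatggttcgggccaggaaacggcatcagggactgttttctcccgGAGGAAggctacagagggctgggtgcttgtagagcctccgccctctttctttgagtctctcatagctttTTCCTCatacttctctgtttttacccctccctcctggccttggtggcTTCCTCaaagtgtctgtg
Fermt3, chr19:7019420-7019719, minus strand: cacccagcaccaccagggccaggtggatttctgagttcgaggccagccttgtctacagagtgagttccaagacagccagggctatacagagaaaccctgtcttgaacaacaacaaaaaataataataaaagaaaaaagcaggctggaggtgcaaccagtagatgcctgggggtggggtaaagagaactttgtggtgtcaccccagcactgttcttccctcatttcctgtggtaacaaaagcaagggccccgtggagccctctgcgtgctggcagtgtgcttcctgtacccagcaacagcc
Itgb1, chr8:128685404-128685703, plus strand: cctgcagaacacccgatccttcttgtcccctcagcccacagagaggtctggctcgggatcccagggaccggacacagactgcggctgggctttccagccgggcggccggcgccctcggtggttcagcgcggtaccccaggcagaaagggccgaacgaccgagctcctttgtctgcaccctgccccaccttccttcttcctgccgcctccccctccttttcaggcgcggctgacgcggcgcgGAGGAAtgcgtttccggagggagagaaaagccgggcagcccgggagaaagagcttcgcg
Tln1, chr4:43562534-43562833, minus strand: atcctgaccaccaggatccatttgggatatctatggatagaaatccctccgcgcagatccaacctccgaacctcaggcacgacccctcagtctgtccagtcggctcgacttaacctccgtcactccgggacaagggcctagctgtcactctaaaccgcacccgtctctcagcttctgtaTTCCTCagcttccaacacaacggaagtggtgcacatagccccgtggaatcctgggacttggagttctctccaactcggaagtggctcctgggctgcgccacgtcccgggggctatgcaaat
GAGGAA matched at 3 places in the Itgam window, at 1 place each in Itgb1 and Tln1, and nowhere in the Fermt3 window, while 28.3% of 32851 promoter windows of this length hold it. The GC box GGGCGG matched once each in Itgam, Itgb1 and Itga4 (35.7% of windows). No member window held a CArG box, which 1.63% of windows hold. A match describes the letters and not a bound site.

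The libraries held 19.1 M to 24.3 M counts. They differed in the amount of olfactory bulb tissue: Cdhr1, a cadherin of bulb projection neurons, was below 20 CPM (counts scaled to a common library size) in 12 libraries and between 57.7 and 445 CPM in 7. The bulb-rich libraries were 2 of the control, 3 of the LPS, 2 of the sedanolide and none of the 5 co-treated libraries. Calls of members and named integrin genes that were lost in the bulb-poor libraries alone are therefore marked as such. Apart from Fn1, calls of the cell type markers were not checked in those libraries. All 10 pan-microglial markers of the marker list were detected in each group. Their summed level was 452 to 624 CPM in control and 498 to 649 CPM in sedanolide libraries. It was 911 to 1107 CPM after LPS and 866 to 1153 CPM after co-treatment. Neuron, astrocyte and oligodendrocyte markers gave no call in LPS against control, whereas 4 of 6 pericyte markers and 4 of the 6 lymphocyte markers tested rose. The sum of 5 erythroid markers, which read blood left in the tissue, was 192 to 289 CPM in control, 94.2 to 232 CPM in sedanolide, 2.40 to 179 CPM in LPS and 28.2 to 96.0 CPM in co-treated libraries, and their part in the integrin values was not tested. In whole tissue, more cells of a type and more RNA per cell cannot be told apart.

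**Figure D1:**
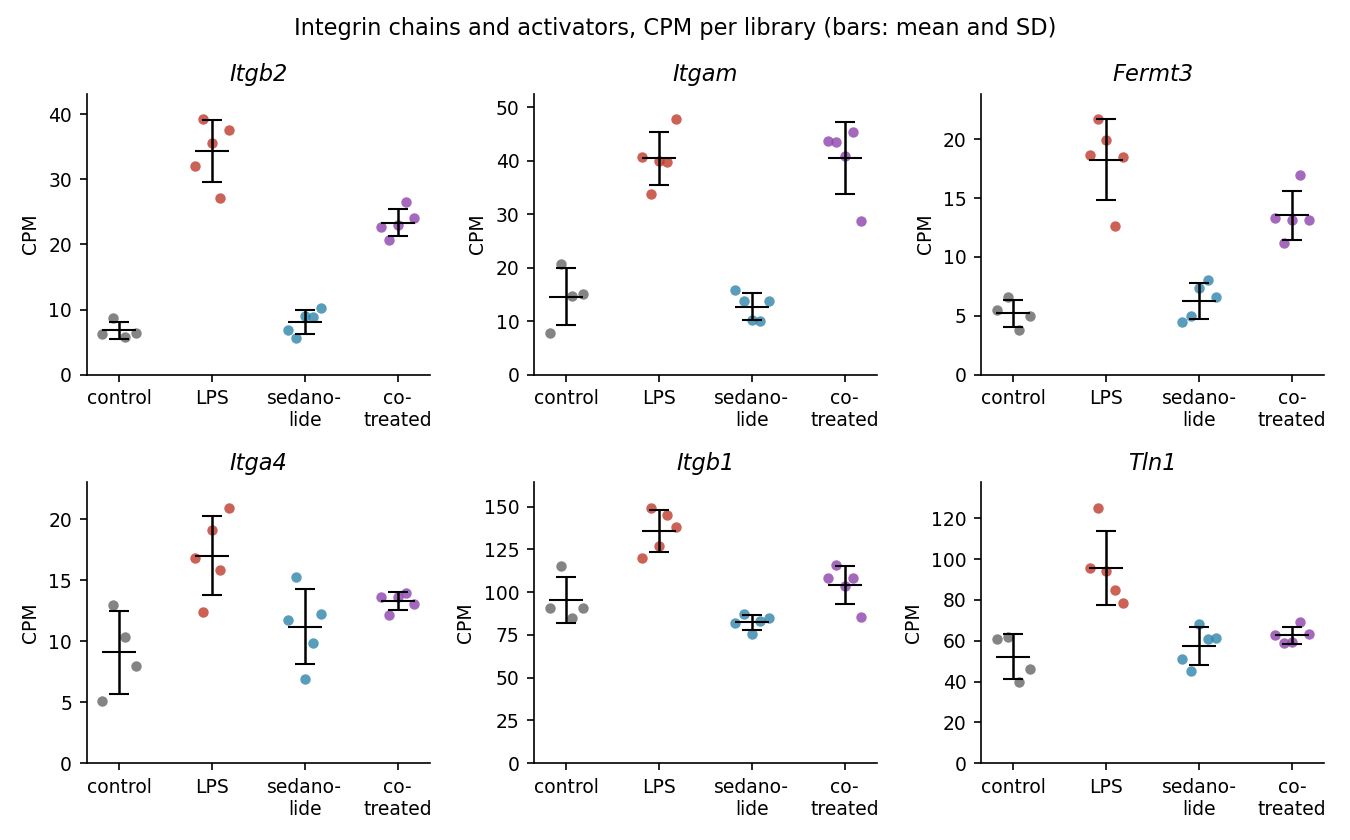
Level of each member in CPM (y axis, linear from 0) in every library of the 4 groups, with horizontal and vertical bars for the mean and SD. Itgb2, Itgam and Fermt3 stand above all control libraries in both LPS groups, whereas Tln1 and Itgb1 in co-treated libraries overlap the controls.

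The comparison of LPS with control asks what repeated LPS injection changed, and all 6 members were higher after LPS, where 8.47% of all genes tested were called higher and 2.44% lower. Genes were tested with edgeR's quasi-likelihood test and Benjamini-Hochberg adjustment over all 17757 genes, with 0.05 as the threshold on the adjusted p for a call. The median log2 change of the 6 members was 1.19, against 0.00 over all genes tested. In 5 of the 6 genes, every LPS library lay above every control library, a separation in that direction that 7.93% of genes showed, and Itga4 was the exception.

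Of the 6 members, the beta-2 chain had the largest change. Itgb2 was at 6.32, 8.72, 5.75 and 6.39 CPM in control replicates 1, 2, 4 and 5 and at 32.1, 39.2, 35.6, 27.2 and 37.6 CPM in LPS replicates 1 to 5. The lowest LPS library thus stood far above the highest control. Its mean was 6.79 CPM ± 1.31 in controls (SD, n = 4) and 34.3 CPM ± 4.81 after LPS (SD, n = 5). Itgb2 rose 5.05-fold (log2 change 2.34, SE 0.16, adjusted p = 1.72e-08).

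Its partner Itgam, the Mac-1 alpha chain, was at 7.87, 20.7, 14.7 and 15.2 CPM in the control libraries and at 40.8, 33.8, 40.02, 39.8 and 47.8 CPM in the LPS libraries. Controls spread widely, with replicate 1, the library richest in bulb transcripts, lowest, but no control reached the LPS range. Itgam rose 2.77-fold (1.47, SE 0.21, adjusted p = 6.2e-05). Kindlin 3 moved alongside: Fermt3 was at 5.47, 6.58, 3.78 and 5.01 CPM in controls and at 18.6, 21.7, 19.9, 12.6 and 18.5 CPM in LPS libraries, a rise of 3.50-fold (1.81, SE 0.20, adjusted p = 2.43e-06).

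The VLA-4 chains rose less. Itga4 was at 5.06, 12.98, 10.3 and 7.93 CPM in controls and at 16.8, 12.4, 19.1, 15.8 and 21.0 CPM in LPS libraries, so that LPS replicate 2 fell within the controls. It rose 1.88-fold (0.91, SE 0.23, adjusted p = 0.0117), and this call was lost without control replicate 5 (adjusted p = 0.0517). Itgb1, the common beta chain, was at 90.9, 115, 84.9 and 90.9 CPM in controls and at 120, 149, 127, 145 and 138 CPM in LPS libraries. It rose 1.42-fold (0.51, SE 0.10, adjusted p = 0.00136), but was not called in bulb-poor libraries alone (0.34, SE 0.15, adjusted p = 0.254).

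Talin 1, which links beta tails to actin, was at 61.0, 62.0, 39.6 and 46.2 CPM in controls and at 95.7, 125, 94.2, 84.8 and 78.3 CPM in LPS libraries. Tln1 rose 1.83-fold (0.87, SE 0.15, adjusted p = 0.000377), with no overlap between the groups. In bulb-poor libraries alone, 5 of the 6 members were called higher, with Itgb2 at 2.24 (SE 0.24), Fermt3 at 1.81 (SE 0.24) and Itgam at 1.30 (SE 0.20). That fit called 848 genes in either direction, against 1938 with all libraries.

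The same LPS contrast in mice given sedanolide, co-treated against sedanolide, compares none of the libraries above, and there 4 of 6 members were called higher against 5.09% of all genes. The control and LPS libraries still enter the shared estimate of spread behind its SE and p-values. Itgb2 was at 6.86, 5.58, 9.03, 8.90 and 10.2 CPM in sedanolide libraries and at 22.6, 20.7, 22.9, 26.5 and 24.05 CPM in co-treated libraries, a rise of 2.87-fold (1.52, SE 0.15, adjusted p = 8.79e-07). Itgam was at 15.8, 13.7, 10.2, 10.0 and 13.8 CPM in sedanolide and at 43.6, 43.5, 41.0, 45.4 and 28.8 CPM in co-treated libraries, a rise of 3.18-fold (1.67, SE 0.20, adjusted p = 1.01e-05). For both genes the groups were fully separated, as they were upward for 5.4% of all genes.

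Fermt3 was at 4.44, 4.94, 7.34, 8.06 and 6.58 CPM in sedanolide and at 13.3, 11.2, 13.2, 16.9 and 13.1 CPM in co-treated libraries, and rose 2.16-fold (1.11, SE 0.18, adjusted p = 0.000351). Itgb1 rose 1.26-fold (0.34, SE 0.09, adjusted p = 0.0344). That call was lost in 8 of 19 fits with a library left out, namely sedanolide replicates 1, 3, 4 and 5 and co-treated replicates 1, 2, 3 and 4 (adjusted p between 0.0586 and 0.103), and in bulb-poor libraries (adjusted p = 0.143). Itga4 (0.25, SE 0.21, adjusted p = 0.633) and Tln1 (0.13, SE 0.14, adjusted p = 0.741) were not called, although both were called in LPS against control.

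**Figure D2:**
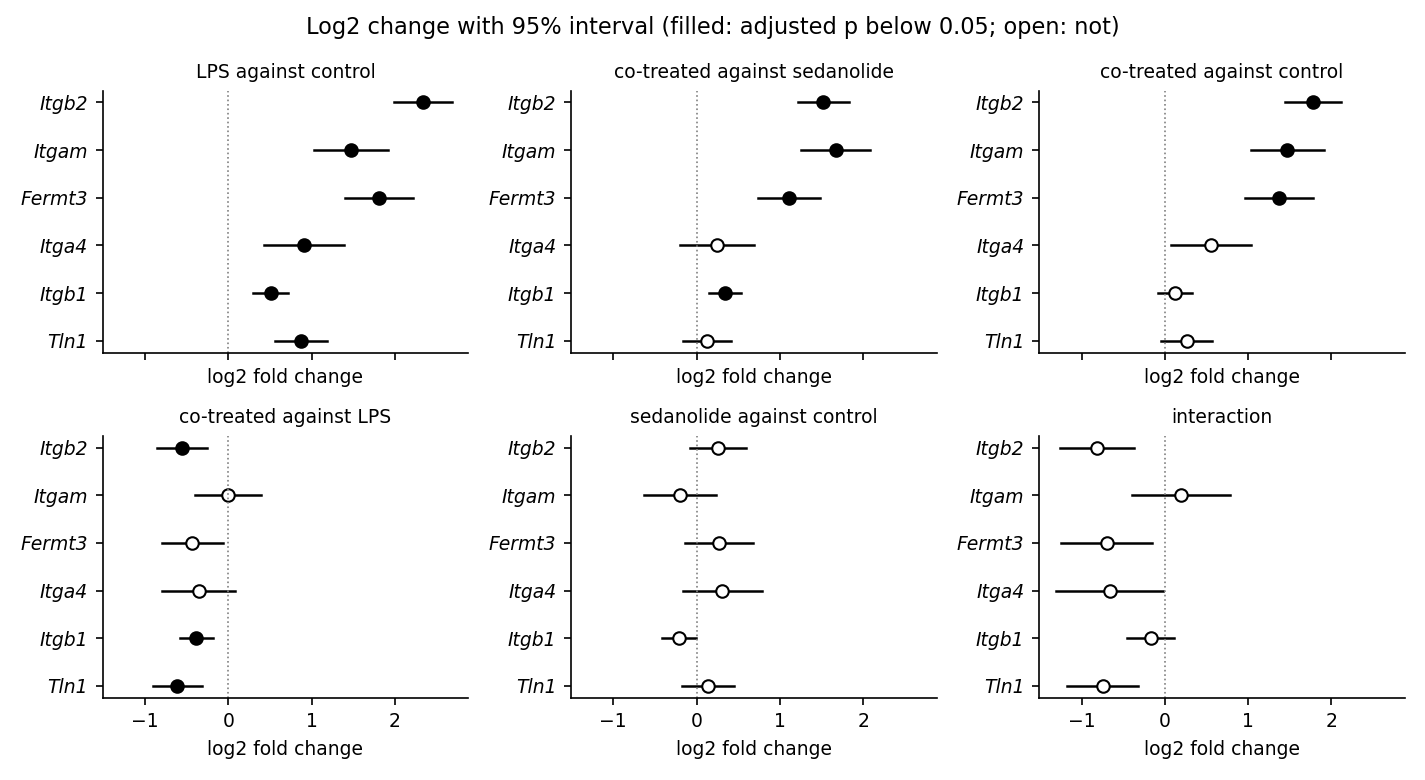
Log2 fold change of each member (x axis) in 6 comparisons, with 95% intervals as lines. Filled points passed an adjusted p below 0.05, which holds for all 6 members in LPS against control, for 3 in co-treated against LPS and for none in sedanolide against control or the interaction.

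Setting co-treated against LPS libraries asks what sedanolide changed in mice given LPS. Itgb2, Itgb1 and Tln1 were called lower, 3 of 6 members against 1.68% of all genes called lower and 1.97% called in either direction, and Itgam stood at the same mean level in both groups. The median log2 change of the 6 members was -0.41, against -0.01 over all genes. Itgb2 fell to 0.680 of its LPS level (-0.56, SE 0.14, adjusted p = 0.0491), to 23.3 CPM ± 2.14 (SD, n = 5). All 5 co-treated libraries (20.7 to 26.5 CPM) lay below the lowest LPS library (27.2 CPM), as 4.6% of genes did in that direction.

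Tln1 was at 62.9, 58.9, 59.2, 69.2 and 63.05 CPM in co-treated libraries, all below the LPS range of 78.3 to 125 CPM. It fell to 0.655 of the LPS level (-0.61, SE 0.14, adjusted p = 0.0265). Itgb1 was at 108, 116, 104, 108 and 85.6 CPM in co-treated libraries, also below the LPS range of 120 to 149 CPM. It fell to 0.767 (-0.38, SE 0.09, adjusted p = 0.0363).

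Itgam did not change detectably between these groups: the means were 40.4 CPM ± 4.97 and 40.5 CPM ± 6.7 (SD, n = 5 each), and the log2 difference was 0.00 with a 95% interval from -0.39 to 0.40 (adjusted p = 0.997). Fermt3 (-0.43, SE 0.17, adjusted p = 0.184) and Itga4 (-0.36, SE 0.21, adjusted p = 0.341) were not called. Itga4 was at 13.7, 12.1, 13.6, 14.0 and 13.1 CPM in co-treated libraries, so replicate 2 lay just below the lowest LPS library and the others within the LPS range.

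The 3 lower calls lay close to the threshold. None of them was called with an index of bulb markers in the model. The Itgb2 call was also lost with RLE or upper quartile library factors and with a block by replicate number. The Tln1 call was lost with that block and the Itgb1 call without an expression filter. None of the 6 members was called in bulb-poor libraries, which hold 2 LPS libraries, where the log2 changes were -0.56 for Itgb2, -0.46 for Tln1 and -0.29 for Itgb1 (adjusted p = 0.278, 0.296 and 0.438). The Itgb2 call was lost in 11 of 19 fits with a library left out (control replicate 5, LPS replicates 1, 2, 3 and 5, sedanolide replicate 4 and each co-treated replicate), with adjusted p from 0.0578 to 0.159. The Itgb1 call was lost in 8 (LPS replicates 2, 3 and 4, sedanolide replicate 4, and co-treated replicates 1, 3, 4 and 5), from 0.0535 to 0.123. The Tln1 call was lost in 6 (LPS replicates 2 and 3 and co-treated replicates 1, 2, 3 and 5), from 0.0529 to 0.0878. Over these fits the log2 change of Itgb2 ranged from -0.63 to -0.50, that of Itgb1 from -0.42 to -0.32 and that of Tln1 from -0.67 to -0.49.

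Markers of neutrophils and monocytes were lower in the same comparison. Of the 6 lymphocyte markers tested none was called, with a median log2 change of -0.45. The sum of the lymphocyte list was 7.92 to 20.4 CPM after LPS and 11.1 to 24.5 CPM after co-treatment, against 1.81 to 17.2 CPM in control and 5.25 to 15.9 CPM in sedanolide libraries. Trbc2 was the most abundant of this list in each group and was not called in LPS against control. Its means were 9.02 CPM in control, 7.78 CPM in LPS, 10.4 CPM in sedanolide and 13.2 CPM in co-treated libraries. The summed level of 10 neutrophil markers was 68.9 to 73.8 CPM after LPS and 33.0 to 43.4 CPM after co-treatment, against 8.35 to 13.4 CPM in control and 6.21 to 13.2 CPM in sedanolide libraries. Of the 9 neutrophil markers tested, all 9 rose in LPS against control and 6 fell in co-treated against LPS. Csf3r was the most abundant of the 10 in each group, with means of 5.85 CPM in control and 26.0 CPM in LPS libraries. Its means were 6.99 CPM in sedanolide and 22.6 CPM in co-treated libraries, and it was not among the 6 that fell. Ly6g was at 0 in all sedanolide libraries. Fn1, also a ligand gene, made up most of the sum of 7 monocyte markers. The other 6 summed to 10.6 to 25.1 CPM after LPS and 4.40 to 6.95 CPM after co-treatment, against 4.13 to 7.72 CPM in control and 2.36 to 5.21 CPM in sedanolide libraries. Of all 7, 6 rose in LPS against control and 5 fell in co-treated against LPS. Border macrophage markers, with 3 of 7 lower (F13a1, also in the monocyte list, Cd163 and Ms4a7), summed to 18.9 to 53.4 CPM after LPS and 10.04 to 19.2 CPM after co-treatment. Their sum was 9.78 to 30.3 CPM in control and 10.02 to 16.1 CPM in sedanolide libraries. In LPS against control only Ms4a7 rose and Lyve1 fell, and Ms4a7 was also called lower with sedanolide alone. Of 10 pan-microglial markers none was called in co-treated against LPS (median log2 change 0.01), and 7 rose in LPS against control. The sum of 8 endothelial markers was 527 to 696 CPM after LPS and 399 to 501 CPM after co-treatment, against 273 to 419 CPM in control and 319 to 383 CPM in sedanolide libraries. All 8 rose in LPS against control and 3 were called lower in co-treated against LPS. Whether these marker falls hold in bulb-poor libraries was not checked, except for Fn1, whose fall was not called there. The part of these cells in the integrin values was not tested.

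Against controls, 3 members were higher in co-treated libraries, where 6.38% of all genes were called higher: Itgb2 (1.78, SE 0.16, adjusted p = 5.59e-07), Itgam (1.47, SE 0.21, adjusted p = 0.000118) and Fermt3 (1.38, SE 0.19, adjusted p = 0.000101). Itga4 (0.55, SE 0.23, adjusted p = 0.116), Tln1 (0.26, SE 0.15, adjusted p = 0.25) and Itgb1 (0.13, SE 0.10, adjusted p = 0.424) were not called. This comparison shares its control libraries with LPS against control and its co-treated libraries with the comparisons above. Leaving out control replicate 2 brought Itga4 past the threshold (adjusted p = 0.0287).

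Sedanolide alone changed no member past the threshold by edgeR, while 5.31% of all genes were called in either direction. The log2 changes ran from -0.21 for Itgb1 (SE 0.10, adjusted p = 0.187) to 0.31 for Itga4 (SE 0.23, adjusted p = 0.413). Sedanolide libraries ranged from 6.94 to 15.3 CPM for Itga4, from 75.7 to 87.3 CPM for Itgb1 and from 45.1 to 68.4 CPM for Tln1, each overlapping the controls. By edgeR's unadjusted p, Itgb1 (0.0433) was the only member below 0.05, where 24.9% of all genes were. DESeq2, which called 1892 genes in all, and limma-voom, which called 4399, called none of the 6 either. The intervals allow a log2 change of Itgb2 between -0.08 and 0.59 and of Itgam between -0.63 and 0.24.

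The difference between the LPS change with and without sedanolide, the interaction, was called for no member by edgeR (0.586% of all genes were called). The change with LPS was smaller with sedanolide for Itgb2 by a log2 value of -0.81 (SE 0.21, adjusted p = 0.0945), for Tln1 by -0.75 (SE 0.20, adjusted p = 0.0994), for Fermt3 by -0.70 (SE 0.26, adjusted p = 0.207) and for Itga4 by -0.66 (SE 0.31, adjusted p = 0.301), none of them past the threshold. Itgb1 stood at -0.17 (SE 0.13) and Itgam at 0.20 (SE 0.28). At an unadjusted p below 0.05, 4 of the 6 passed, as did 15.9% of all genes. DESeq2, which called 447 genes in all against 104 by edgeR, called Itgb2 (adjusted p = 0.0202) and Tln1 (0.031). Limma-voom with sample weights, which called 3836 genes, called Itgb2, Tln1, Itga4 and Fermt3. Itgb2 was also called without control replicate 2 (adjusted p = 0.0321) or sedanolide replicate 2 (0.0352), and Itga4 with an index of bulb markers in the model (0.0311).

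Compared per kilobase of merged exons, the beta-2 alpha chains differed in abundance and in course. Lengths came from the GENCODE M21 annotation at hand, matched by gene identifier. In control libraries Itgam was at 2.91 CPM per kb, Itgal at 0.11, Itgax at 0.08 and Itgad at 0.01, so that Itgam made up 93.3% of the 4 alpha chains. After LPS Itgam was at 8.05 CPM per kb, Itgal, the LFA-1 chain of lymphocytes, neutrophils and monocytes, at 1.52 and Itgax at 0.82, which left Itgam with 77.2% and Itgal with 14.6%. In co-treated libraries Itgal was at 0.33 CPM per kb, or 3.52%, and Itgax at 0.83, or 8.96%. The beta-2 chain itself stood at 2.23, 11.3, 2.66 and 7.65 CPM per kb in control, LPS, sedanolide and co-treated libraries. Itgb1 was the most abundant member on this scale in each group, from 20.2 in sedanolide to 33.3 in LPS libraries.

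**Figure D3:**
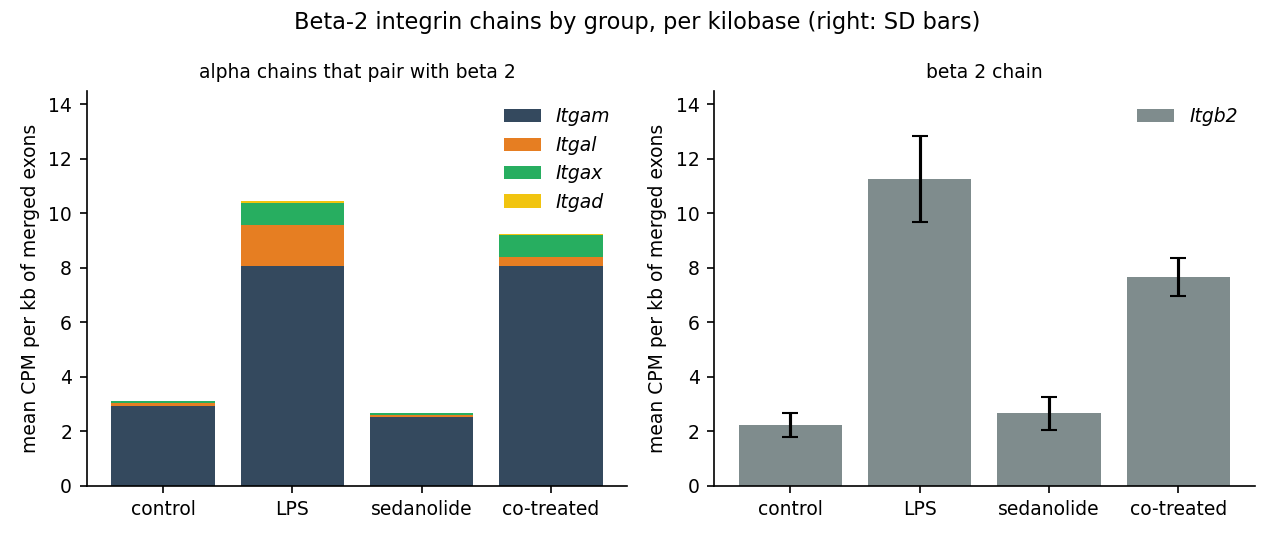
Mean CPM per kilobase of merged exons by group (bars from 0) for the alpha chains that pair with Itgb2 (left, stacked) and for Itgb2 (right, error bars SD). The Itgam segment has the same height in LPS and co-treated libraries (8.05 and 8.06), while the Itgal segment is 1.52 with LPS and 0.33 with co-treatment.

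Of the 5 other leukocyte integrin chains, Itgal, Itgax and Itgb7 passed the expression filter and all 3 were higher after LPS. Itgal was at 1.03, 0.88, 0.39 and 0.58 CPM in controls, 5.45, 13.6, 10.9, 9.48 and 10.4 CPM in LPS and 2.06, 2.02, 2.07, 2.70 and 1.85 CPM in co-treated libraries. The co-treated libraries lay between both groups without touching either. Itgal rose by 3.76 (SE 0.32, adjusted p = 1.02e-07) with LPS and was lower with co-treatment than with LPS alone (-2.22, SE 0.26, adjusted p = 0.000165). Itgax stood at 0.41 CPM in controls and 3.94 CPM after LPS, a log2 rise of 3.23 (SE 0.23, adjusted p = 1.72e-08). Its co-treated mean was 3.98 CPM ± 0.26 (SD, n = 5), and it was not called against LPS (adjusted p = 0.964). Itgb7, the other beta partner of Itga4, rose by 1.54 (SE 0.32, adjusted p = 0.00264) and was not called in co-treated against LPS (-0.79, SE 0.28, adjusted p = 0.149). Itgad and Itgae held at most 7 and 13 counts in any library and were not tested.

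Ratios of counts within a library, which no library factor enters, set these genes against each other. The ratios were chosen after the values were seen. Of 40 comparisons of 10 ratios by exact two-sided permutation tests, 17 had an unadjusted p below 0.05 and none a Benjamini-Hochberg adjusted p below 0.05, the smallest adjusted value being 0.0529. The smallest p the design allows is 0.0159 for 5 against 4 libraries and 0.00794 for 5 against 5. The log2 ratio of Itgal to Itgam was -2.07 ± 0.57 after LPS, -4.22 ± 0.21 after co-treatment and -4.87 ± 0.78 after sedanolide (SD, n = 5 each), and -4.30 ± 0.97 in controls (SD, n = 4). It was lower in all 5 co-treated than in all 5 LPS libraries (difference -2.15, exact permutation p = 0.00794, adjusted 0.0529).

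Set against the sum of the pan-microglial markers, Itgb2 was 2.54-fold higher in LPS than in control libraries (log2 ratio -4.91 ± 0.16 against -6.26 ± 0.07, exact permutation p = 0.0159, adjusted 0.0529), with no overlap between the groups. With co-treatment this ratio was -5.38 ± 0.09, below all LPS and above all control libraries. The ratio of Itgam to the same sum was -4.67 ± 0.17 in LPS and -4.60 ± 0.24 in co-treated libraries (difference 0.07, exact permutation p = 0.603). The ratio of Itgb1 to the sum of the endothelial markers was -1.77 ± 0.08 in control and -2.10 ± 0.18 in LPS libraries (difference -0.34, exact permutation p = 0.0159, adjusted 0.0529). It was also lower with sedanolide alone, at -2.04 ± 0.12 (difference -0.27, exact permutation p = 0.0159, adjusted 0.0529).

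**Figure D4:**
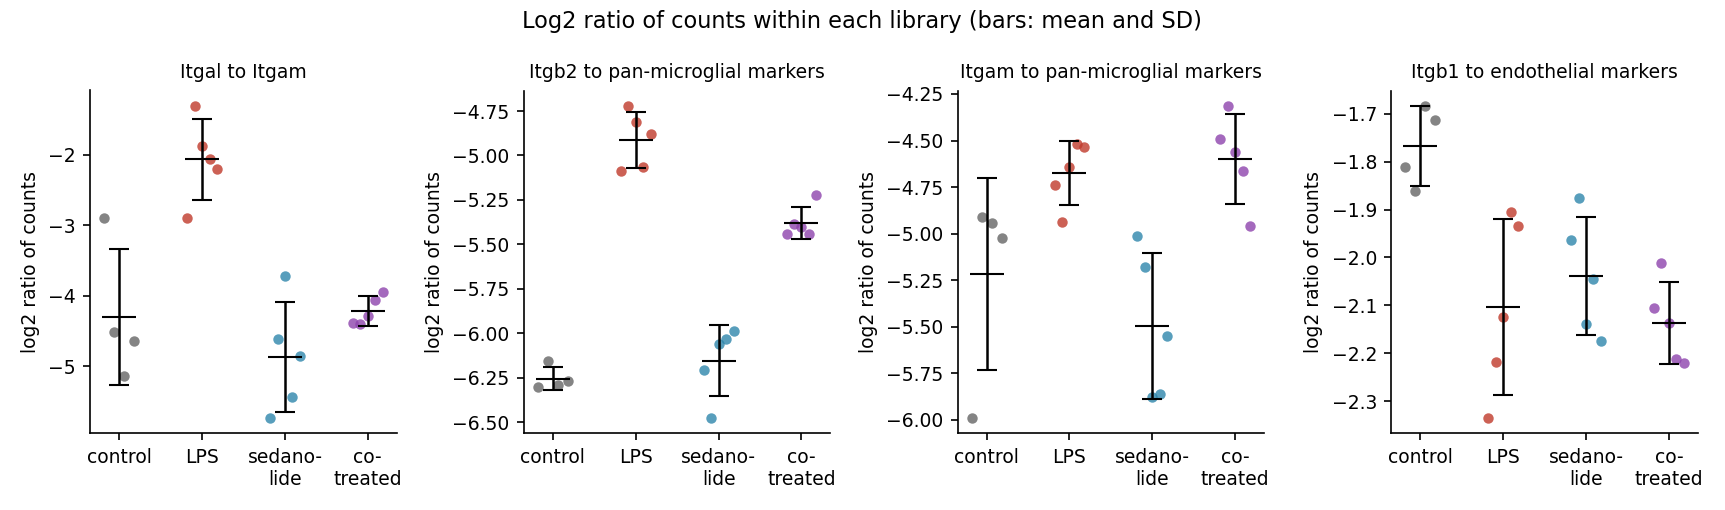
Log2 ratio of counts within each library (y axis, one point per library) with mean and SD for Itgal to Itgam, for Itgb2 and Itgam to the sum of 10 pan-microglial markers, and for Itgb1 to the sum of 8 endothelial markers. Co-treated libraries separate from LPS libraries for Itgal to Itgam (-4.22 against -2.07) and not for Itgam to the microglial markers (-4.60 against -4.67).

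The other integrin genes were read as lists. Of 12 other alpha chains, 3 rose after LPS and none fell (median log2 change 0.29): Itga5 (1.34, SE 0.25), the fibronectin receptor chain, Itga1 (0.80, SE 0.14), a collagen receptor chain, and the laminin receptor chain Itga6 (0.79, SE 0.12). Itga5 and Itga1 were not called in bulb-poor libraries alone. Of 4 other beta chains tested, Itgb5 rose (2.15-fold, adjusted p = 4.1e-06). None of these 16 genes was called in co-treated against LPS or in sedanolide against control by edgeR. The broadly expressed paralogs of the activators, Tln2 (0.15, SE 0.11, adjusted p = 0.417) and Fermt2 (-0.03, SE 0.10, adjusted p = 0.904), were not called after LPS.

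Of 12 genes of inside-out activation, the pathway by which other receptors switch integrins on, 4 rose after LPS and none fell (median 0.26). They were the adaptor genes Fyb (2.70, SE 0.22), Skap2 (0.71, SE 0.09) and Apbb1ip (1.02, SE 0.14), whose product RIAM brings talin to the membrane, and Rapgef1 (0.36, SE 0.11, adjusted p = 0.045), whose call was lost in 12 of the 19 fits with a library left out (LPS replicates 1, 2 and 3, control replicates 1, 4 and 5, co-treated replicates 1 to 4 and sedanolide replicates 3 and 4, with adjusted p from 0.0503 to 0.188) and in bulb-poor libraries (0.339). The small GTPase genes Rap1a (-0.26, SE 0.13, adjusted p = 0.206) and Rap1b (0.02, SE 0.12, adjusted p = 0.931) were not called. None of the 12 was called in co-treated against LPS.

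Among 9 partners of talin and kindlin, the parvin gene Parvg (1.02, SE 0.17), vinculin (Vcl; 0.91, SE 0.16) and paxillin (Pxn; 0.77, SE 0.15) rose after LPS and none fell (median 0.41). Unlike the members, Vcl also rose with sedanolide alone (0.62, SE 0.16, adjusted p = 0.037). That call was lost without control replicate 1, 4 or 5, sedanolide replicate 3, 4 or 5 or co-treated replicate 3 (adjusted p from 0.0504 to 0.152). Vcl fell in co-treated against LPS (-0.59, SE 0.15, adjusted p = 0.0495), a call lost without LPS replicate 1, 2, 3 or 4, sedanolide replicate 2, 4 or 5 or any co-treated replicate (0.056 to 0.176). Its interaction was called (-1.21, SE 0.22, adjusted p = 0.0162). In bulb-poor libraries none of these 4 Vcl calls held. Of 5 genes that restrain integrins, the filamin gene Flna and the adaptor gene Dok1 rose after LPS (0.87, SE 0.21 and 1.47, SE 0.19). Flna fell in co-treated against LPS libraries (-1.09, SE 0.20, adjusted p = 0.00753), with LPS libraries at 109 CPM ± 43.6 and co-treated libraries at 51.0 CPM ± 5.42 (SD, n = 5 each). The Flna rise was lost without control replicate 5 (adjusted p = 0.0522) and in bulb-poor libraries (0.40, adjusted p = 0.357). The fall was lost in bulb-poor libraries (-0.72, adjusted p = 0.144) and with the bulb index in the model (0.0578).

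Of 12 genes that signal from bound integrins, 9 rose after LPS and none fell (median 1.51), among them the kinase genes Fgr (4.36, SE 0.42) and Syk (1.68, SE 0.16), the exchange factor gene Vav1 (1.64, SE 0.13) and the adaptor gene Lcp2 (1.59, SE 0.15). Of these 12, Fgr (-1.45, SE 0.30, adjusted p = 0.0159) and Syk (-0.58, SE 0.14, adjusted p = 0.0356) fell in co-treated against LPS. The Fgr call was lost without co-treated replicate 1 (0.0566) and without LPS replicate 2 (0.0549). The Syk call was lost without LPS replicate 2, 3 or 4, sedanolide replicate 4 or any co-treated replicate (0.0515 to 0.127). Both calls were lost in bulb-poor libraries (Fgr -1.04, adjusted p = 0.317, Syk -0.40, adjusted p = 0.478) and with the bulb index in the model (Fgr -0.94, Syk -0.45). Src rose with sedanolide alone (0.27, SE 0.08, adjusted p = 0.046), a call lost in 12 of the 19 fits, those without control replicate 1, 4 or 5, LPS replicate 3, sedanolide replicate 1, 3, 4 or 5 or co-treated replicate 1, 2, 3 or 4 (0.051 to 0.176), and lost in bulb-poor libraries (0.506). In co-treated against sedanolide, 8 of the 12 rose.

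Of 15 ligand genes, 10 were tested and 3 rose after LPS: Icam1 (1.95, SE 0.25), the ligand of LFA-1 and Mac-1, fibronectin (Fn1; 1.66, SE 0.24), a ligand of VLA-4, and Icam2 (0.78, SE 0.21, adjusted p = 0.0216), whose call was lost without control replicate 4 or 5 or LPS replicate 2 (0.0659 to 0.081) and in bulb-poor libraries (0.37, adjusted p = 0.591). Icam1 (-1.07, SE 0.22, adjusted p = 0.0166) and Fn1 (-1.13, SE 0.22, adjusted p = 0.0106) fell in co-treated against LPS, and the Icam1 call was lost without LPS replicate 2 or co-treated replicate 1 or 3 (0.0545 to 0.0567). Neither fall was called in bulb-poor libraries or with the bulb index in the model. Vcam1, the cellular ligand of VLA-4, was at 43.3 CPM ± 12.9 in control (SD, n = 4) and 56.8 CPM ± 5.07 in LPS libraries (SD, n = 5) and was not called (0.39, SE 0.14, adjusted p = 0.0793).

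**Figure D5:**
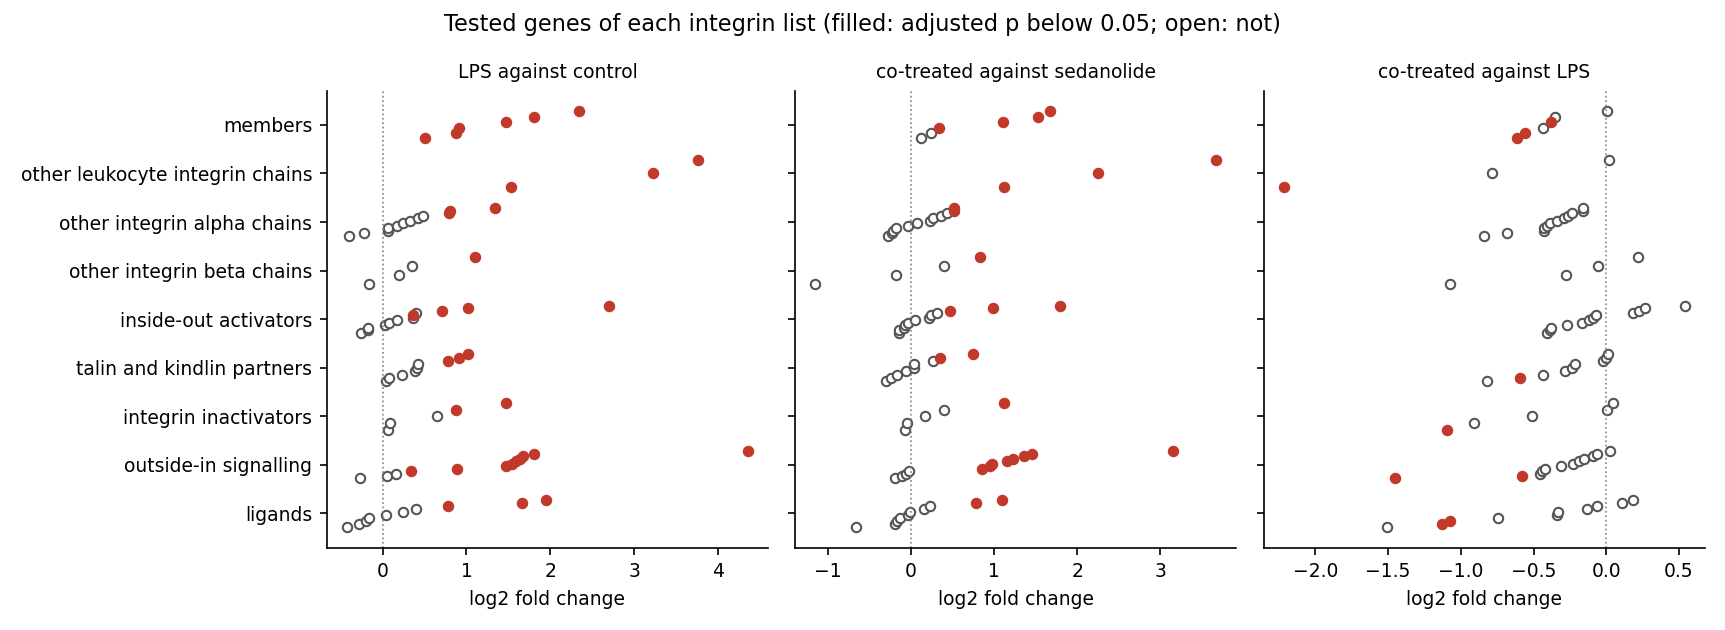
Log2 fold change (x axis) of each tested gene of the members and of 8 integrin lists in 3 comparisons, with filled points for genes called at an adjusted p below 0.05. All filled points lie to the right of 0 in LPS against control and to the left in co-treated against LPS, where 3 of the 6 members are filled and the other alpha chains, other beta chains and inside-out activators have none.

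Genes with a course like that of each member were ranked by the root mean square difference of centred log2 CPM over the 19 libraries. Nearest to Itgb2, whose own SD over the libraries was 1.04, were Slc11a1 (0.17), Pld4 (0.17) and Csf3r (0.18). Nearest to Itgam (SD 0.88) were Cd33 (0.16), Aif1, the gene of the microglial marker Iba1 (0.17), and Cd84 (0.18). Fermt3 (SD 0.81) had Unc93b1 (0.17), Arhgap45 (0.18) and Plcg2 (0.18), and Tln1 (SD 0.40) had Pxn (0.10) and Lamc1 (0.11) among its nearest. Itgb1 (SD 0.30) had Snap23, Cd151 and Tmem123 (0.11 each), and Itga4 (SD 0.49) had Rnf144b (0.21), Slco1c1 (0.22) and Cd34 (0.23). Among the members, the closest pairs were Itgb1 with Tln1 (0.26) and Itgb2 with Fermt3 (0.28), and the widest pair was Itgb2 with Itgb1 (0.80).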

How the data were processed

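The 19 libraries were made from poly(A) RNA with a kit that keeps strand, per the labels' protocols. The authors deposited raw counts of reads per gene in 1 table. Tools named in the submitters' processing notes, without versions, are DESeq2, RSEM, StringTie, HISAT2 and fastp. The deposited table carries the name of featureCounts, whose settings, like the genome build, are not given in the sources used here.

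From these counts, trimmed-mean (TMM) factors, CPM of the filtered library scaled by them, and edgeR 4.0.16 quasi-likelihood tests (R 4.3.3, default expression filter by group, robust dispersion, 1 mean per group, all 19 libraries in 1 model) were computed. SE is the size of the log2 change divided by root F, and 95% intervals use the t distribution. In simulated LPS against control counts of 17482 genes, 64% of 100 genes changed by a log2 value of 1 and all 100 changed by 2 were recovered. Among the unchanged genes 12 were called. The simulation gave every gene the same dispersion, held no bulb differences and changed only genes above 1 CPM. Recovery in the real libraries can therefore differ. Library totals averaged 22.2 M ± 1.53 (SD).

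Members, lists, ratios and tests were chosen with earlier results of these data known. Genes outside the members are named if called in LPS against control, co-treated against LPS, sedanolide against control or the interaction, up to 4 per list and direction by p, with the other leukocyte chains always given. The 3 genes of nearest course are named per member, except 1 that is not reported here, with log2 CPM at a prior count of 2, and further genes were that were not called were named after their values were seen. Ratios used a pseudocount of 0.5 counts. Promoter windows were searched on both strands for GAGGAA, the GC box and the CArG box. Alternatives were other library factors, other filters, DESeq2 1.42.0, limma 3.58.1 voom, only the groups compared, a replicate block, each library left out, a bulb index, bulb-poor libraries and a pan-microglial index.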

Additional observations from a re-analysis of the deposited data

Results flagged for a closer look

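In 36 groups of libraries (9 integrin genes in 4 groups), a library stood apart from the rest of its group in 2, where chance flags about 1 in 20. Itgam was at 28.8 CPM in co-treated replicate 5, below the other co-treated libraries at 41.0 to 45.4 CPM. Itgal was at 2.70 CPM in co-treated replicate 4, above the others at 1.85 to 2.07 CPM. Without co-treated replicate 5 the log2 change of Itgam in co-treated against LPS was 0.10, the highest among fits with a library left out.

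The LPS change of the vinculin gene Vcl differed with and without sedanolide by a test of the difference itself (log2 -1.21, adjusted p = 0.0162 by edgeR). It was called in all 19 fits with a library left out and not in bulb-poor libraries (-0.79, adjusted p = 0.516).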

How the results depend on the processing

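The call of Itgb2, Itgam and Fermt3 as higher in LPS against control, in co-treated against control and in co-treated against sedanolide held under every alternative but the pan-microglial index, and in all 19 fits with a library left out. With that index in the model, 0 members were called in each of these comparisons, and of all genes only 6, 2 and 16, against 1938, 1965 and 990 without it. The index itself rose with LPS, so it and the treatment cannot be told apart. Under it, log2 changes turned in LPS against control for Itga1 (-0.013), Rapgef1 (-0.1163) and Parvg (-0.0349), in co-treated against control for Itga4 (-0.0812), Itgb1 (-0.2489) and Tln1 (-0.1958), and in co-treated against sedanolide for Itga4 (-0.357), Itgb1 (-0.009) and Tln1 (-0.2885). In co-treated against LPS the 3 members called became 5 with limma-voom and 1 with the replicate block, Itgb1. With the bulb index 1 was called, Itga4, which was not among the 3. The count was 0 in bulb-poor libraries and 0 to 3 with a library left out. The 350 genes called in all in this comparison became 2647, 145, 106, 35 and 141 to 590 under these, in that order. Itgam, near 0 there, turned with the 1 CPM filter (-0.0069), the block (-0.0021), the bulb index (-0.2885) and bulb-poor libraries (-0.1179), and ranged from -0.0567 to 0.1019 with a library left out. Itgax turned with limma-voom (-0.0028) and bulb-poor libraries (-0.0242), ranging from -0.0091 to 0.0491. In co-treated against control limma-voom called 5 members and 4784 genes. For the interaction, DESeq2 called 2 members, limma-voom 4, the bulb index 1 and fits with a library left out 0 to 1. The 104 genes called in all for the interaction became 447, 3836, 268 and 33 to 242 under these, in that order. Itgam ranged from -0.4066 to 0.0203 in sedanolide against control and from -0.0181 to 0.4084 in the interaction with a library left out. The causes of these changes were not tested. Same-numbered libraries of different groups were no more alike than others by correlation of their deviations from the group means. A correlation above 0.1 was found in 5 of 27 same-numbered pairs and in 36 of 108 other pairs. Whether libraries shared a batch by number was not tested.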
